A study of Mus musculus with 9 samples.

Results

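Cytokines are secreted or membrane-bound signalling proteins. By symbol, the genes described here fall into 4 families. These are chemokines and chemokine receptors (Ccl, Cxcl, Ccr and Cxcr followed by a digit), and interleukins and their receptors (Il and a digit). The others are the tumour necrosis factor superfamily (Tnfsf and Tnfrsf and a digit) and the Toll-like receptors (Tlr and a number). Of the 25965 genes in the deposited table, 181 matched by symbol, and 178 remained after Il6, Il6st and Tlr3 were set aside. A gene was called expressed when its level, given as log2 of its library-scaled read count (log2 CPM), was at least 0 in 3 or more libraries. By that rule 44 of the 178 genes (24.7%) were expressed, against 14044 of all 25965 genes (54.1%).

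The RNA came from neural stem cell lines derived from C57BL/6 embryos at E14.5 that carried Smchd1 fl/fl, alleles flanked by loxP sites. Smchd1 encodes a chromatin protein that helps to keep genes silent, among them genes on the inactive X chromosome. Each line was divided: one portion was transduced with the MSCV-Cre-puro retrovirus, which deletes the flanked stretch (del/del), received puromycin from 24 h and was collected on day 7, and the other portion was left untransduced (fl/fl). The 9 libraries were female del/del from lines 1, 2 and 3, male del/del from line 5, female fl/fl from lines 1, 2 and 3, and male fl/fl from lines 5 and 7. All animals were fl/fl, so Cre, retrovirus and puromycin went with del/del only, and their effects and that of the loss of Smchd1 cannot be told apart. Where the series' design text differs (it has every line as female, and del/fl as the control genotype), groups follow the sample titles. Nothing in the labels says whether lines came from separate embryos, so p-values measure the spread between these libraries.

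Chemokines bind G-protein-coupled receptors and direct cell migration; interleukins and TNF ligands bind receptors that work through JAK kinases, through MyD88 and its partners or through TRAF adaptors and death domains. Toll-like receptors recognise microbial and self-derived molecules and feed, like the IL-1 receptor, into NF-kB. Neural progenitors are known to use part of this repertoire, such as Cxcl12 and its receptor Cxcr4 in migration, while most of it belongs to leukocytes and microglia.

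Between 12.9 M (female fl/fl 2) and 44.9 M reads per library fell in listed genes, and every library other than female fl/fl 2 had at least 32.9 M. Female fl/fl 2 also stood apart in the levels of several genes, given where they are described. Smchd1 was between 5.04 and 5.36 log2 CPM in del/del and between 6.16 and 6.81 in fl/fl libraries, a log2 fold change of -1.19 (SE 0.148, limma adjusted p = 0.00751). Of 20 marker genes of microglia and leukocytes in the table, 12 had under 10 reads in every library, among them Ptprc, Tyrobp, Aif1, Trem2, Tmem119 and the 3 C1q genes. The markers' summed level was 114 to 127 CPM in del/del and 99.9 to 133 CPM in fl/fl libraries, and most of it came from Cx3cr1, whose mean was 6.67 log2 CPM in del/del and 6.66 in fl/fl. All 12 neural stem cell markers were expressed and none passed the test. Of 8 astrocyte markers, 3 rose (Gfap by 2.07, Aqp4 by 1.66 and Slc1a2 by 0.66 on the log2 scale), with summed levels of 290 to 384 CPM in del/del and 228 to 431 CPM in fl/fl. For this list and the next ones, the share among all expressed genes was 1.45% for a rise and 0.0997% for a fall. Of 7 expressed neuronal markers, 2 rose (Nefm by 1.49 and Nefl by 1.25), and the summed level of the list did not overlap between groups, at 96.1 to 107 CPM in del/del and 57.9 to 86.8 CPM in fl/fl; the median of the list was -0.18. Of 7 endothelial markers 2 were expressed and neither passed (Flt1 had 1.84, limma adjusted p = 0.106, and passed with lines as blocks, 0.00995), with sums of 4.61 to 8.75 and 2.94 to 5.59 CPM, and Cdh5 and Cldn5 had under 10 reads in every library. None of the 3 oligodendrocyte lineage and 2 fibroblast markers that were expressed passed, with sums of 66.4 to 79.2 and 53.5 to 87.3 CPM in del/del and 59.9 to 112 and 38.1 to 71.8 CPM in fl/fl. In bulk RNA, fewer cells of a type and less RNA per cell cannot be told apart, and the part of any change in cell makeup in the results below was not tested.

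The 44 expressed genes were spread unevenly over the families. Receptors and related membrane proteins made up most of them: 27 of 83 receptors were expressed, against 14 of 86 ligands and 3 of 9 decoys or other genes (Tnfrsf22 and Tnfrsf23, described below as decoys, were counted with the receptors). By family these were 24 of 82 interleukin genes, 11 of 30 TNF superfamily genes, 8 of 55 chemokine genes and 1 of 11 Toll-like receptors (Tlr4). Of the 134 genes that were not expressed, 23 had no read in any library, 61 had between 1 and 9 reads at most, 42 reached 10 to 99 reads and 8 reached 100 or more in a library.

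Over both sexes, 2 of the 44 expressed genes rose in del/del and none fell (limma on the log2 values with sex as a covariate, Benjamini-Hochberg adjusted p under 0.05 over all 14044 expressed genes). Among all expressed genes 1.45% rose and 0.0997% fell, so the share of 4.55% rests on 2 genes, the chemokine Cxcl14 and the interleukin 3 receptor subunit Il3ra. At an unadjusted p under 0.05 there were 13 of the 44 (29.5%), against 9.84% of all expressed genes. The median log2 fold change of the 44 was 0.03, and that of all expressed genes was -0.00. In 36 of the 44 the change was within 0.5 in either direction, and 24 (54.5%) lay above 0, against 48.9% of all expressed genes. The fit behind these counts did not use the pairing of libraries by line. With lines as blocks, 5 of the 44 rose (11.4%, against 3.77% of all expressed genes). When libraries were also centred on their median, 2 rose (4.55%, against 1.61%). A gene could count as expressed only with the help of the del/del libraries, as Cxcl14, Il1r1 and Il1rapl1 did, so counts over the expressed genes are given as description.

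**Figure D1:**
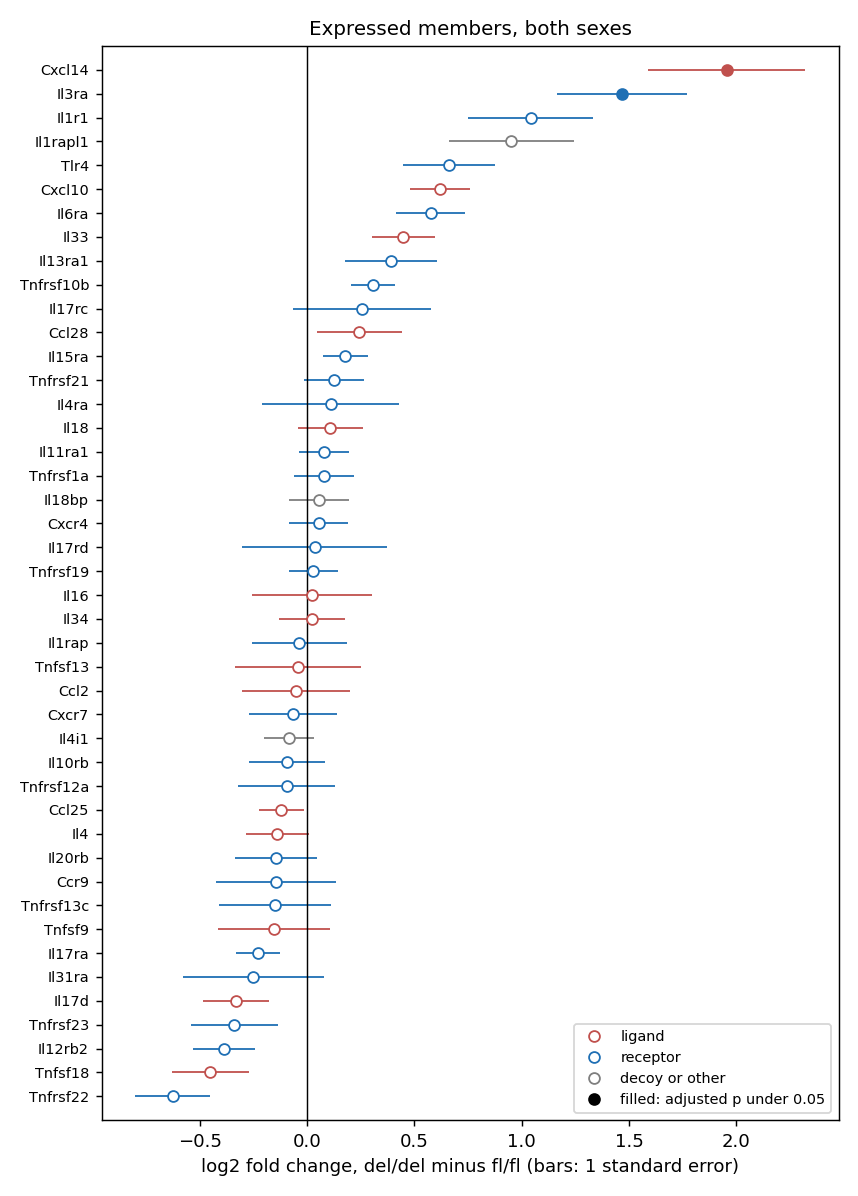
Log2 fold change of del/del against fl/fl over both sexes for the 44 expressed genes (x axis), ordered by size; bars are 1 standard error, colours give ligand, receptor or decoy and other, and filled points had an adjusted p under 0.05. Cxcl14 at 1.96 and Il3ra at 1.47 are the filled points, and 36 of the 44 lie within 0.5 of 0.

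In 7 of the 44 (15.9%, against 5.53% of all expressed genes) every del/del library was above every fl/fl library: Cxcl14, Cxcl10, Il3ra, Il1r1, Il1rapl1, Tlr4 and Tnfrsf10b. In 2 (4.55%, against 0.99%) every del/del library was below, and these were Tnfrsf22 and Tnfrsf23. The rows of 33 of the 44 overlapped no other row, and 6 of the 7 and both of the latter were among them. The exception was Cxcl10, whose row lies inside that of Art3. Of the 7, Cxcl14, Il1r1 and Il1rapl1 met the expression rule only with the help of the del/del libraries, so the share of 15.9% is description.

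Among the ligands, Cxcl14 (chromosome 13, 56288647 to 56296551, mm10), a chemokine made by many epithelia and known to act on myeloid cells, had the largest estimate of the 44. Its level was 1.73, 1.48 and 0.11 log2 CPM in female del/del lines 1, 2 and 3 and 1.35 in male del/del line 5. In the fl/fl libraries it was -0.37, -1.13 and -0.67 in female lines 1, 2 and 3, -0.93 in male line 5 and -0.83 in male line 7. The groups did not overlap, every fl/fl library was below 1 CPM, and female del/del 3 was the lowest of its group. The estimated difference was 1.96 on the log2 scale (SE 0.365, 3.88-fold, limma adjusted p = 0.0311), and with each line as a block it was 1.95. On a log2 scale of CPM plus 1, which shrinks low levels, it was 1.07. The call was lost in 6 of the 9 fits that each left out 1 library: without female del/del 1 (limma adjusted p = 0.104), female del/del 2 (0.152), male del/del 5 (0.275), female fl/fl 3 (0.0789), male fl/fl 5 (0.0728) or male fl/fl 7 (0.0511), with log2 fold changes of 1.78 to 2.30 over the 9.

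Cxcl10 (chromosome 5, 92346638 to 92348889), a chemokine induced by interferons that attracts T cells through the receptor Cxcr3, stood at 3.36, 2.99 and 3.23 log2 CPM in female del/del lines 1, 2 and 3 and at 3.39 in male line 5. In fl/fl it was 2.72, 2.71 and 2.40 in the female lines and 2.44 and 2.94 in male lines 5 and 7. The lowest del/del library, female line 2, was only just above the highest fl/fl library, male line 7. The estimate was 0.62 on the log2 scale (SE 0.141, 1.54-fold) with a limma adjusted p of 0.0705. With lines as blocks it was 0.67 and passed (adjusted p by limma 0.0307), as it did with every library centred on its median (0.0439). Of the 7275 reads counted for the row of Art3, which spans Cxcl10, 6547 were also counted for Cxcl10, so the rise of Art3 (log2 fold change 0.67, SE 0.133, limma adjusted p = 0.0417) largely counts the same reads; it passed in 2 of the 9 fits with 1 library left out. Cxcr3 had 0 or 1 read in every library.

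The sequences printed here lie before the start sites of the 2 genes that rose and of Cxcl10. They were chosen after the values were seen, were taken from RefSeq (GRCm38.p6, the mm10 assembly) and are given 5′ to 3′ on the gene's strand as the 250 bases before the start. No part of them is marked. The flanks lie at chr13:56296552-56296801 (minus strand) for Cxcl14, chr5:92348890-92349139 (minus strand) for Cxcl10 and chr14:14346245-14346494 (plus strand) for Il3ra.
Cxcl14: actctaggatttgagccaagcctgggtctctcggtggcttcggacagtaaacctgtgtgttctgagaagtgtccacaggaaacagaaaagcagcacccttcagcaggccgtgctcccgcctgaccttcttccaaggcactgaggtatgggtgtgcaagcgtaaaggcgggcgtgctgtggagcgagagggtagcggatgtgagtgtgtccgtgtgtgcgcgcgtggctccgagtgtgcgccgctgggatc
Cxcl10: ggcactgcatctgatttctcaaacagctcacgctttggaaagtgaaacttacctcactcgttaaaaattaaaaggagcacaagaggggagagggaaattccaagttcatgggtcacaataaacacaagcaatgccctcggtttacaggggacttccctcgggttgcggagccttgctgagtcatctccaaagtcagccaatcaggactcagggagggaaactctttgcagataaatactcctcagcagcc
Il3ra: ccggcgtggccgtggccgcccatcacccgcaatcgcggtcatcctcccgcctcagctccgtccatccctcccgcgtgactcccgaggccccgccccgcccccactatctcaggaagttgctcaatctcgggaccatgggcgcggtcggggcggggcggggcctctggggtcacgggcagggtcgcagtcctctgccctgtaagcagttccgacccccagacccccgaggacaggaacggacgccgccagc
RefSeq windows were found for 36 of the 44 expressed genes.

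None of the other expressed ligands passed. Il33, an IL-1 family alarmin made by astrocytes and barrier cells, was 1.77 to 2.14 log2 CPM in del/del and 1.39 to 1.85 in fl/fl libraries, with a log2 fold change of 0.45 (SE 0.148, limma adjusted p = 0.255). Its receptor Il1rl1 had at most 7 reads in a library. The chemokines Ccl28 (log2 fold change 0.24), Ccl2 (-0.05) and Ccl25 (-0.12) and the interleukins Il18 (0.11), Il34 (0.02), Il16 (0.02) and Il4 (-0.14) had overlapping groups. The 2003 reads of Ccl2 were counted again in the row of Gm17268, which had 2007.

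Estimates below 0 were also seen for Il17d and the 3 expressed TNF ligands, none of which passed. Tnfsf18, the ligand of the receptor GITR, was 2.95, 2.80 and 3.13 log2 CPM in female del/del and 2.36 in male del/del, against 3.32, 3.72 and 2.89 in female fl/fl and 3.25 and 2.85 in male fl/fl libraries. The groups overlapped, with a log2 fold change of -0.45 (SE 0.178, limma adjusted p = 0.391). Il17d, an interleukin 17 family member expressed in the nervous system, had -0.33 (SE 0.154, limma adjusted p = 0.530), and the estimates of Tnfsf9 and Tnfsf13 were -0.16 and -0.04. That of Tnfsf13 turned to 0.04 with lines as blocks and was 0.11 in females.

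Among the receptors, Il3ra (chromosome 14, 14346495 to 14355490), the ligand-binding alpha chain of the interleukin 3 receptor, rose. Its level was 2.13, 2.21 and 2.28 log2 CPM in female del/del lines 1, 2 and 3 and 2.42 in male line 5. In fl/fl libraries it was 1.25, -0.20 and 1.09 in female lines 1, 2 and 3 and 0.57 and 1.44 in male lines 5 and 7. The del/del values were close together (SD 0.122, n = 4) and the fl/fl values were not (SD 0.661, n = 5), with female fl/fl 2, the shallowest library, lowest. The estimated difference was 1.47 on the log2 scale (SE 0.304, 2.76-fold, limma adjusted p = 0.0483), and without female fl/fl 2 it was 1.17 (limma adjusted p = 0.0204). With lines as blocks it was 1.58 (0.0113). The call was lost without any 1 of the 4 del/del libraries, female line 1 (limma adjusted p = 0.144), 2 (0.161) or 3 (0.132) or male line 5 (0.272), and without female fl/fl 3 (0.0789) or male fl/fl 5 (0.103). It was also lost with median centring (0.105).

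**Figure D2:**
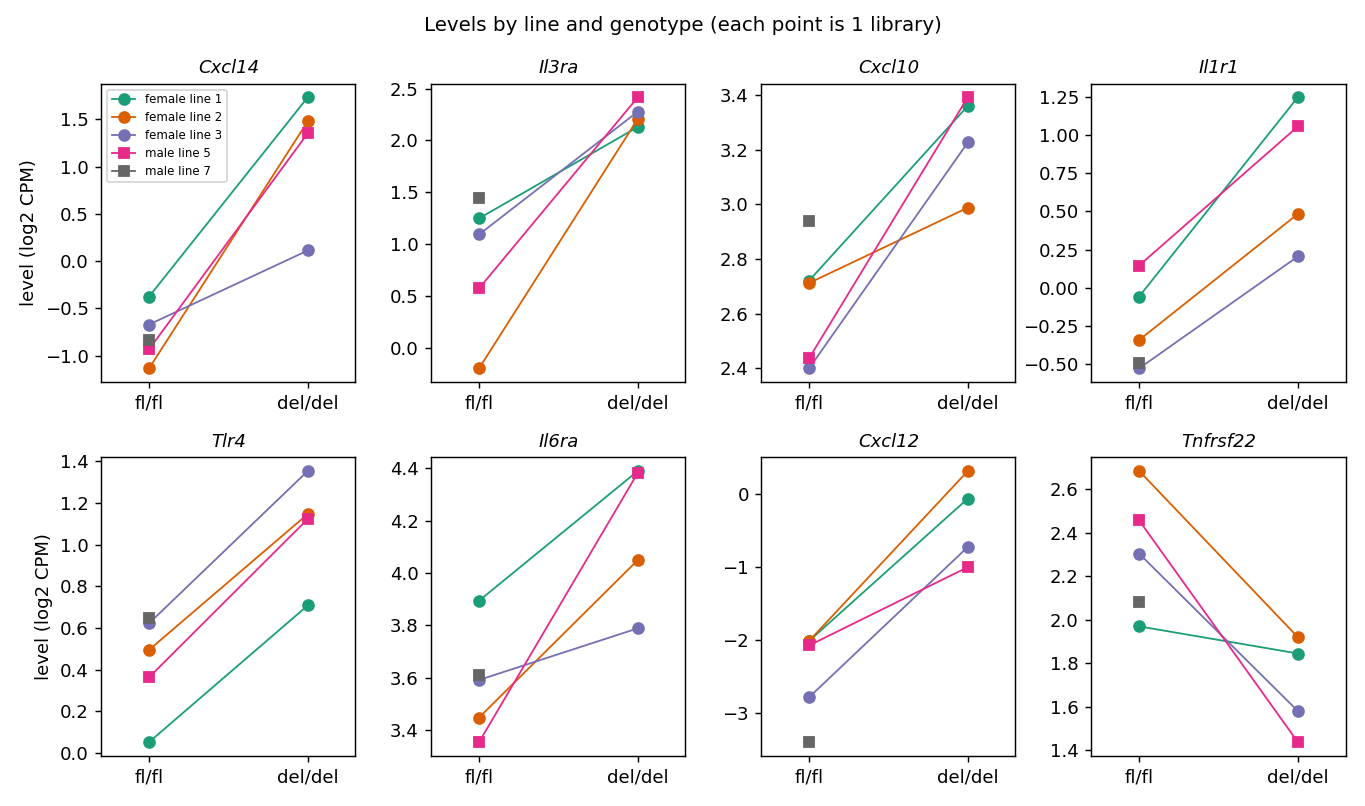
Level in log2 CPM (y axis, a separate range for each gene) of 8 genes in each library, by genotype; each point is 1 library and lines join the fl/fl and del/del libraries of a cell line, with male line 7 unpaired. In Cxcl14, Il3ra, Cxcl10, Il1r1, Tlr4 and Cxcl12 all del/del points lie above all fl/fl points, in Il6ra they overlap, and in Tnfrsf22 they lie below.

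The gene for the alpha chain of the related granulocyte-macrophage colony-stimulating factor receptor, Csf2ra (chromosome 19, 61224402 to 61228418), does not match the symbol rule but stood in a list of cytokine genes outside it. It was 3.42, 3.34 and 3.20 log2 CPM in female del/del and 3.36 in male del/del, against 1.81, 1.39 and 1.69 in female fl/fl and 1.18 and 2.41 in male fl/fl libraries. The groups did not overlap, and Csf2ra rose by 1.65 on the log2 scale (SE 0.224, 3.14-fold, limma adjusted p = 0.00843). It passed in 8 of the 9 fits with 1 library left out and not without male del/del 5 (limma adjusted p = 0.0930). Both alpha chains signal with a common beta chain, and Csf2rb had at most 3 and Csf2rb2 at most 2 reads in a library. The ligand Il3 had 1 read in 1 library and none elsewhere.

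The IL-1 receptor and Toll-like receptor genes, which share adaptors, came next. Il1r1, the signalling receptor of interleukin 1, was 1.25, 0.48 and 0.20 log2 CPM in female del/del and 1.06 in male del/del, against -0.06, -0.34 and -0.53 in female fl/fl and 0.14 and -0.49 in male fl/fl libraries. The lowest del/del library, female line 3, was just above the highest fl/fl library, male line 5. Its estimate was 1.04 on the log2 scale (SE 0.291, limma adjusted p = 0.148), and with lines as blocks it passed (0.95, adjusted p by limma 0.0341). Tlr4, the receptor of bacterial lipopolysaccharide, was 0.71, 1.15 and 1.35 in female del/del and 1.12 in male del/del, against 0.05, 0.50 and 0.62 in female fl/fl and 0.36 and 0.65 in male fl/fl libraries. Here the lowest del/del and the highest fl/fl value, female line 1 and male line 7, were 0.71 and 0.65. Its estimate was 0.66 on the log2 scale (SE 0.215, limma adjusted p = 0.242), and 0.70 when lines were blocks (limma adjusted p = 0.0433). Il1rapl1, an X-linked synaptic relative of the IL-1 receptor accessory protein, was 0.31 to 0.89 in del/del and -0.69 to 0.30 in fl/fl libraries, with a log2 fold change of 0.95 (SE 0.291, limma adjusted p = 0.201).

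Il1rap, the accessory chain that Il1r1 needs for signalling, was among the 6 genes named for a high log2 CPM and had an estimate of -0.04 (SE 0.221). Its row, with 81863 reads, overlaps that of Gm20319, which had 41381, so its level may not be that of Il1rap alone. Of the ligands of Il1r1, Il1a had 13 to 35 reads and Il1b at most 2 in a library. The row of Il1a overlaps that of Gm14023 over 79.3% of its span, so its reads may not be those of Il1a alone. The other Toll-like receptors were not expressed: Tlr2, a receptor of bacterial lipoproteins, had the most reads of them, 11 to 107 (log2 fold change 0.61 with no filter on low values, limma adjusted p = 0.732), and Tlr11 and Tlr12 had no read.

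In a list of 35 adaptors, regulators and NF-kB genes acting behind these receptors, 32 were expressed and none passed in either direction, also with lines as blocks. Their median log2 fold change was 0.05. Myd88, the main adaptor, had 0.18 (SE 0.152), Ticam1, the adaptor of the MyD88-independent branch, 0.27 (SE 0.104) and Sarm1, a TIR-domain NADase of neurons, 0.44 (SE 0.192), with limma adjusted p-values of 0.980, 0.388 and 0.476. Unc93b1, which carries nucleic acid-sensing Toll-like receptors to endosomes, had 0.48 (SE 0.273, limma adjusted p = 0.721). The NF-kB target genes Nfkbia and Tnfaip3 had 0.10 and 0.09.

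The remaining interleukin receptors did not pass over both sexes. Il6ra, the interleukin 6 binding chain, was 4.39, 4.05 and 3.79 log2 CPM in female del/del and 4.38 in male del/del, against 3.89, 3.45 and 3.59 in female fl/fl and 3.35 and 3.61 in male fl/fl libraries. The groups overlapped only through female fl/fl 1, which was above female del/del 3. The estimate was 0.58 on the log2 scale (SE 0.161, limma adjusted p = 0.147), and it passed with the library name prefix as a covariate (0.62, limma adjusted p = 0.0482). Il13ra1, the X-linked interleukin 13 receptor chain, had 0.39 (SE 0.214, limma adjusted p = 0.693), and Il15ra 0.18. On the lower side were Il12rb2, the signalling chain of the interleukin 12 receptor, with -0.39 (SE 0.146, limma adjusted p = 0.357), Il31ra with -0.25 (SE 0.330) and Il17ra with -0.23 (SE 0.102, limma adjusted p = 0.497). Of the exon sequence of Il12rb2, 38.0% of 50-base words also occur in another gene.

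Il17rd and Il17rc differed between cell lines. Il17rd, a receptor-like regulator of fibroblast growth factor signalling, was 3.50 and 3.52 in del/del and fl/fl of female line 1, 2.61 and 2.63 in line 2, 2.37 and 2.45 in line 3 and 3.46 and 3.95 in male line 5, with 2.59 in male fl/fl 7. Lines 1 and 5 were high with either genotype and the others low. Il17rc, a chain of the interleukin 17 receptor, was 2.23 and 2.26 in line 1, 1.51 and 1.11 in line 2, 1.11 and 0.94 in line 3 and 1.81 and 1.70 in line 5. Over the 4 lines with both genotypes, a difference between lines passed in these 2 of the 44, with limma adjusted p-values of 0.00400 for Il17rd and 0.0261 for Il17rc. The share of 4.55% was near the 3.28% of all expressed genes, and the test was added after the values were seen. Line 5 was the only male line of the 4 and line 1 the only one without the library name prefix. Within that test, line, sex and prefix therefore cannot be told apart. Male fl/fl 7, also without the prefix, was outside the test and had 2.59 for Il17rd and 1.06 for Il17rc. The parts of sex and prefix were not tested. The del/del against fl/fl estimates of Il17rd and Il17rc were 0.03 (SE 0.340) and 0.26 (SE 0.322).

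**Figure D3:**
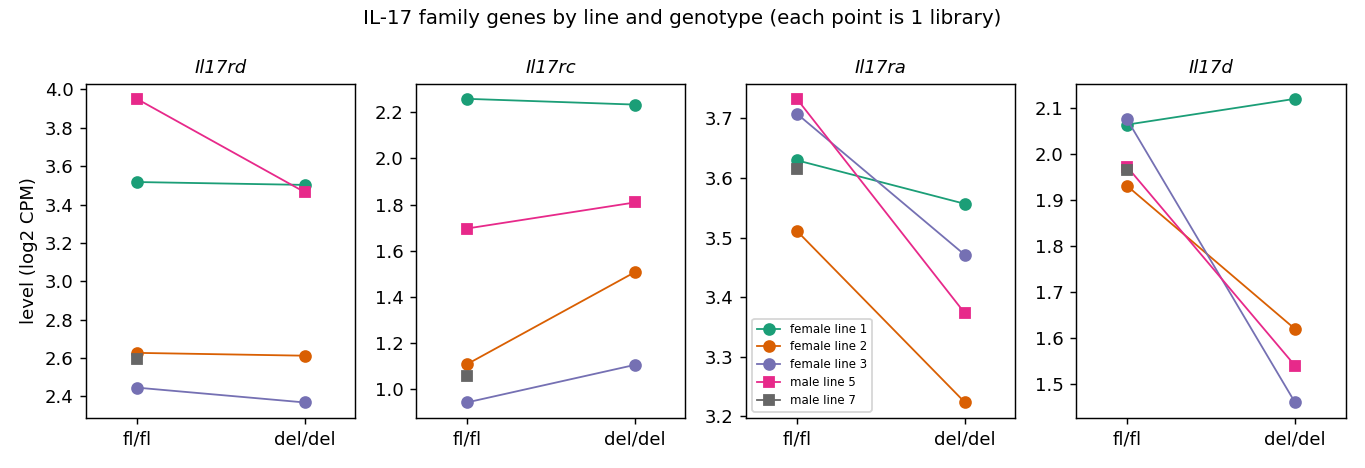
Level in log2 CPM (y axis, a separate range for each gene) of 4 interleukin 17 family genes in each library, by genotype; each point is 1 library and lines join libraries of a cell line. Il17rd is between 3.46 and 3.95 in lines 1 and 5 and between 2.37 and 2.63 elsewhere, whereas Il17ra and Il17d show no such split.

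Chemokine receptors showed small estimates. Cxcr4, the receptor of Cxcl12, was 2.97 to 3.52 log2 CPM in del/del and 2.92 to 3.36 in fl/fl libraries (log2 fold change 0.05, SE 0.138). Cxcr7 (now Ackr3), the atypical receptor that takes up Cxcl12, was 1.11 to 1.78 and 1.25 to 1.88 (-0.07, SE 0.205). Ccr9 had -0.15 (SE 0.280), but of the 41685 reads counted over its span, the row of Gm17200 counted 36216 and that of Lztfl1 15924, so its level is not that of Ccr9 alone.

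Cxcl12, the ligand of both, missed the expression rule, with 51 to 131 reads in del/del and 6 to 29 reads in fl/fl libraries. Its level was -0.06, 0.32 and -0.72 log2 CPM in female del/del and -0.998 in male del/del, against -2.01, -2.01 and -2.78 in female fl/fl and -2.07 and -3.39 in male fl/fl libraries. The groups did not overlap. With no filter on low values, Cxcl12 rose by 1.99 on the log2 scale (SE 0.410, limma adjusted p = 0.0401). In that fit 3 of the 178 genes rose, Cxcl14, Il3ra and Cxcl12 (1.69%, against 1.07% of all 25965 genes). Il7, a lymphocyte growth factor named here after its values were seen, had 10 to 29 reads in del/del and 0 to 8 reads in fl/fl libraries (log2 fold change 2.45, SE 0.552, limma adjusted p = 0.0629). Its receptor Il7r had at most 1 read in a library.

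Of the TNF receptors, the neighbouring decoy receptor genes Tnfrsf22 and Tnfrsf23 on chromosome 7 were lower in every del/del library, though neither passed. Tnfrsf22 was 1.85, 1.92 and 1.58 log2 CPM in female del/del and 1.44 in male del/del, against 1.97, 2.68 and 2.30 in female fl/fl and 2.46 and 2.08 in male fl/fl libraries. The gap between the groups, 1.92 to 1.97, was small, and the estimate was -0.63 on the log2 scale (SE 0.175, limma adjusted p = 0.146). Tnfrsf23 was 0.22 to 0.36 in del/del and 0.45 to 1.02 in fl/fl libraries (log2 fold change -0.34, SE 0.204, limma adjusted p = 0.770). Of their 50-base exon words 27.4% and 19.3% also occur in other genes, most of all in the other gene of the pair. The 2 may therefore not be independent observations. Tnfrsf10b, the TRAIL death receptor, was 4.69 to 5.04 in del/del and 4.30 to 4.64 in fl/fl libraries (0.31, SE 0.103, limma adjusted p = 0.263), and its ligand Tnfsf10 had at most 5 reads in a library. Tnfrsf21 (death receptor 6), which acts in axon pruning, had 0.13 (SE 0.140), Tnfrsf19 (TROY), known from neural progenitors, 0.03 (SE 0.113), and Tnfrsf1a, the main TNF receptor, 0.08 (SE 0.140).

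Among 29 TNF family genes outside the symbol rule and TNF receptor adaptors, 17 were expressed and none passed. Their median log2 fold change was 0.04. Casp8, the caspase activated by death receptors, had 0.60 (SE 0.142, limma adjusted p = 0.0837) and passed with lines as blocks (0.0302). The death receptor Fas had 0.60 (SE 0.204, limma adjusted p = 0.277), and Tradd and Relt had 0.44 and 0.41. Tnf had at most 2 reads in a library. Of 25 chemokine and cytokine genes outside the rule, 12 were expressed with a median of 0.17, and Csf2ra was the 1 that passed. Cx3cl1, the neuronal chemokine fractalkine, had 0.59 (limma adjusted p = 0.112) and passed with lines as blocks (0.0219). In a list of interferon response genes, chosen with earlier results of these data known, 11 of 23 expressed genes rose and none fell, with a median of 1.08. Among all expressed genes 1.45% rose and 0.0997% fell. Rsad2 rose by 1.75 and Ifih1 by 1.37 on the log2 scale.

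Il4i1 and Il11ra1 were among the 6 genes named for a high log2 CPM, but their rows share reads with others. Of 32412 reads over the span of Il4i1, 31147 were counted for Nup62, and Il11ra1 with 41436 reads spans Dctn3 (14483). Their log2 fold changes were -0.08 (SE 0.117) and 0.08 (SE 0.116). Log2 CPM is not per length, so a high value does not rank transcripts.

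Female fl/fl 2 lay far above the other 4 fl/fl libraries in 5 of the 44 genes: Ccr9, Il4, Il31ra, Il1rap and Tnfrsf12a, the receptor of the TNF ligand TWEAK. Il31ra was 2.94 log2 CPM there and 1.20 to 1.33 in the others, and 1.29 to 1.65 in del/del. Il1rap, whose row overlaps that of Gm20319, was 7.48 there, 6.37 to 6.57 in the other fl/fl and 6.54 to 6.84 in the del/del libraries. Without this library the log2 fold change of Il31ra went from -0.25 to 0.13, that of Ccr9 from -0.15 to 0.17 and that of Il1rap from -0.04 to 0.20, and none passed.

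**Figure D4:**
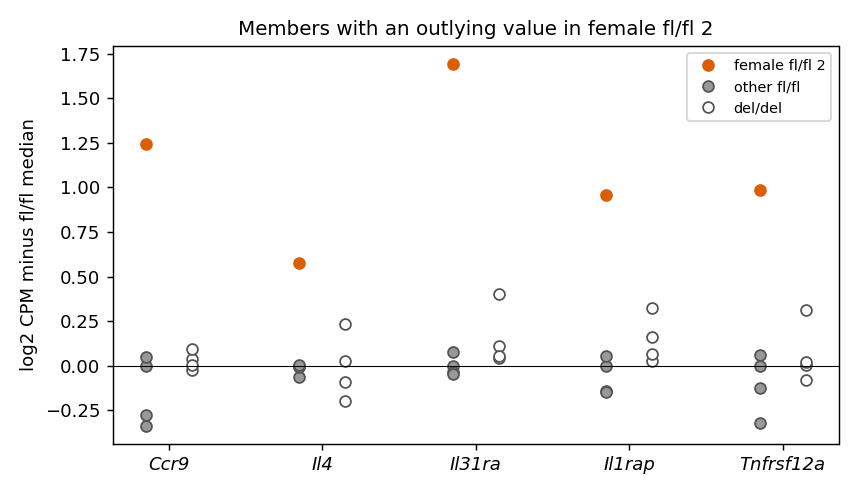
Level of 5 genes in each library, as log2 CPM minus the fl/fl median of that gene (y axis); orange points are female fl/fl 2, grey points the other fl/fl and open points the del/del libraries. Female fl/fl 2 is the highest point in each gene, with Il31ra at 2.94 log2 CPM against 1.20 to 1.33 in the other fl/fl libraries.

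By sex, none of the 44 passed in females (3 against 3 libraries; 0.0142% of all expressed genes rose) or in males (1 against 2 libraries, the lone del/del library being assumed to vary like the other groups; 0.0% of all). At an unadjusted p under 0.05 there were 9 in females (6.52% of all expressed genes) and 6 in males (2.63%). In females the log2 fold changes of Cxcl14 and Il3ra were 1.83 and 1.49, with limma adjusted p-values of 0.261 and 0.269 that became 0.0142 and 0.00778 when lines were blocks, where 2 of the 44 rose in females, against 1.87% of all expressed genes. In males they were 2.23 and 1.41. The female minus male difference was -0.40 for Cxcl14 and 0.08 for Il3ra, and no gene of the 44 passed the test of this difference at either an adjusted or an unadjusted p under 0.05 (0.0% and 0.0427% of all expressed genes). In the fit with lines as blocks, 5 of the 44 rose over both sexes (11.4%, against 3.77% of all): Cxcl14, Il3ra, Cxcl10, Il1r1 and Tlr4. With every library also centred on its median, 2 rose (4.55%, against 1.61%), Cxcl14 and Cxcl10, and Il3ra (limma adjusted p = 0.0529), Il1r1 (0.0670) and Tlr4 (0.116) did not; in females none of the 44 then rose (0.164% of all expressed genes). Male fl/fl 7 has no partner and adds nothing to that fit.

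**Figure D5:**
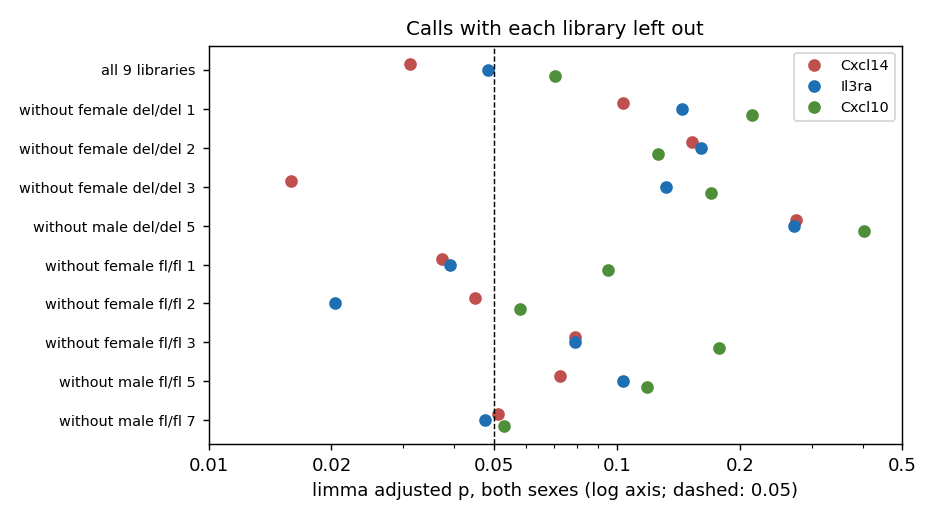
Limma adjusted p over both sexes (x axis, log scale; dashed line at 0.05) for Cxcl14, Il3ra and Cxcl10 with all 9 libraries and with each library left out in turn (rows). Cxcl14 and Il3ra move across the line, reaching 0.275 and 0.272 without male del/del 5, and Cxcl10 is above the line in every row.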

How the data were processed

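RNA from 9 neural stem cell libraries was sequenced. Per the submitters' processing notes, bcl2fastq, TopHat2 2.0.12, edgeR 3.8.2 and the build mm10 were used; the sources used here do not say how reads were counted, on which annotation or with what strand setting. The authors deposited 1 table of log2 CPM for 25965 genes. Whole reads could be recovered, to within 0.05, from at least 99.996% of the values in every library (a gene without reads was entered as 0.9), which gives totals of 24.1 to 116.6 M reads, of which 34.8% to 53.3% fell in listed genes. Reads were counted over whole gene spans: in 1234 of 1234 pairs of rows where one lies inside the other, the outer row had at least the reads of the inner in all 9 libraries. By place and name 176 of the 178 genes matched GENCODE vM21.

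Groups came from the sample titles. The deposited log2 values of the 14044 genes reaching 0 in 3 or more libraries were fitted in R 4.3.3 by limma 3.58.1 (intensity trend, two-sided), with sex as a covariate over both sexes and 4 group means for the effects by sex. P-values were adjusted by Benjamini-Hochberg over all genes fitted, with a threshold of 0.05. In simulated data of 14044 genes with 200 changed, 83% were recovered at a log2 fold change of 1 and 98% at 2, with 4 false calls of 185. The simulated noise was independent between libraries, with no effect of line, and the changed genes were drawn from all expressed genes. Recovery among the genes described here may therefore differ. Voom on the recovered reads was an alternative; the others were scaling, filters, a pseudocount, leaving out libraries, the line as a block and the prefix "RNA-" that 6 of the 9 library descriptions carry.

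The line numbers pair libraries, since each line was divided. Deviations of female libraries from their group mean correlated at r of 0.868, 0.582 and 0.758 for libraries of the same line, but also at 0.728 for del/del 2 with fl/fl 3 and 0.494 for del/del 3 with fl/fl 2.

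Genes named are those that passed, and of the others up to 8 by size of estimated rise and 6 by size of estimated fall. The 6 with the highest mean level, partners of genes that passed and up to 4 of each further list by p are also named. Others are named as chosen after their values were seen or given within a count. Further genes given with values, such as Il17ra, Ccl2, Ccl25, Ccl28 and Tnfrsf1a, fall outside these rules. The genes and lists were chosen with earlier results of these data known. Depth counts reads and not molecules, so it covers counting error only. Microglial and leukocyte, neural stem cell, astrocyte, neuronal, oligodendrocyte, endothelial and fibroblast markers were looked at.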

Additional observations from a re-analysis of the deposited data

Results flagged for a closer look

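In 6 of 88 combinations of an expressed gene with a genotype, 1 library lay farther from its neighbour, relative to the range of its group, than Dixon's 95% limit; chance alone gives about 1 in 20. Of the 6, 5 were in female fl/fl 2, the library with the fewest reads. There Ccr9 was 6.85 log2 CPM (5.28 to 5.66 in the other fl/fl libraries), Il4 was 3.36 (2.72 to 2.79), Il31ra was 2.94 (1.20 to 1.33), Il1rap was 7.48 (6.37 to 6.57) and Tnfrsf12a was 5.88 (4.58 to 4.95). The remaining value was Tnfrsf1a in female del/del 1, at 5.38 against 4.94 to 5.01 in the other del/del libraries. The median level of all expressed genes was also highest in these libraries, at 4.46 log2 CPM in female fl/fl 2 and 4.38 in female del/del 1. In the other libraries that median was 4.10 to 4.26. The parts of depth and of this higher median in the flagged values were not tested.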

How the results depend on the processing

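Against 2 of the 44 genes that rose over both sexes, 5 rose with the replicate block (pairing by line; 3.77% of all genes tested), 2 with the block and median centring (1.61%), 4 with the name prefix as a covariate (2.71%), 0 with quantile normalization (0.612%), 0 of 35 with the stricter filter (1.06%) and 0 in the 6 libraries with the prefix (1.24%). With 1 library left out in turn the count was 0 to 2. In females it was 0, became 2 with the replicate block (1.87% of all) and was 0 with the block and median centring (0.164%). Genes counted as expressed were 44, 35 when log2 CPM had to reach 1 in 4 or more libraries, 50 when it had to reach 0 in a single library, and 33 without rows that overlap another, an alternative chosen after seeing the data. Cxcl14 and Il3ra kept their sign in every alternative run, at 1.07 to 2.30 and 1.06 to 1.81 on the log2 scale, the lowest with log2 of CPM plus 1; Cxcl14 passed in 11 of 19 and Il3ra in 9 of 20. Over both sexes, 409 of the values of named genes under the alternatives stayed on the same side of the threshold, 7 came to pass and 19 no longer did; the cause was not tested. Without female fl/fl 2 the sign of Ccr9, Il31ra and Il1rap turned (none passed). The median of all genes moved from -0.05 to 0.08 over the alternatives. Reads per gene limit the genes below 1 CPM, and span counting limits genes that overlap others.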

Other observations

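Some genes that were not expressed by the rule followed a feature of the library names instead of genotype. Of the 9 library descriptions, 6 begin with "RNA-" and 3 do not (female del/del 1, female fl/fl 1 and male fl/fl 7). All libraries of lines 2, 3 and 5 carry the prefix and none of lines 1 and 7 does, so it cannot be told apart from a difference between these lines. Il2, the T-cell growth factor, had 13 to 37 reads in the 6 libraries with the prefix and 0 to 2 reads in the 3 without. Ccl21b and Ccl21c, near-identical copies of a lymph node chemokine gene whose reads cannot be told apart with certainty, had 17 to 60 and 13 to 53 reads with the prefix and 0 and 0 to 8 without. The row of Ccl21b also lies wholly inside that of Gm13307. Il1rapl2, an X-linked relative of the IL-1 receptor accessory protein, had 25 to 101 reads with it and 7 to 18 without. These genes were named after their values were seen. Among expressed genes, the prefix separated 2 of the 44 (4.55%) and 9.95% of all 14044. What the prefix stands for is not given in the sources used here.

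In some ligand and receptor pairs, chosen after their values were seen, 1 partner was not expressed. Il18 was expressed and Il18r1 had no read in any library. Il15ra was expressed, and Il15 had 3 to 41 reads. In other pairs both were, such as Il4 with Il4ra and Il13ra1.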
